A study of Mus musculus with 6 samples.

Results

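C-type lectin receptors are surface proteins with a carbohydrate-recognition fold that let myeloid cells sense microbial sugars, dead cells and one another. The genes described here are those whose platform symbol begins with Clec and a number or with Cd209. They came to 39 of the 19505 named genes, each read by 1 probe set, 24 of them on chromosome 6 and 10 on chromosome 8. Their values came from microglia, the macrophages that reside in brain tissue, taken from the brain at the peak of experimental autoimmune encephalomyelitis, a mouse model of multiple sclerosis. The arrays cover 3 samples of B cell conditional knock-out (CKO) mice and 3 samples of control mice, all female C57BL/6. Both groups had been immunised with recombinant MOG in IFA and had received pertussis toxin. The series title speaks of GM-CSF-expressing B cells; GM-CSF is a growth factor and activator of macrophages and granulocytes. Not given in the sources used here are the deleted gene, the Cre driver, the mice's age and how microglia were isolated. Whether replicates are separate animals is also not stated, so a p-value reflects the spread between samples and that spread may be technical.

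Many of these receptors signal through an immunoreceptor tyrosine-based activation motif, either on a partner chain such as Fcer1g or Tyrobp or in a shorter form in their own tail, which recruits the kinase Syk and then the adaptor Card9. Others carry an inhibitory motif that recruits phosphatases such as Ptpn6. The products of a further group, the Clec2 genes, are recognised by lectin-like receptors of natural killer (NK) cells. In the inflamed brain several of the activating receptors are carried mainly by monocytes, neutrophils and dendritic cells that enter from the blood, and some also by activated microglia.

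The isolates held a strong microglial signal and signals of other leukocytes. Across 9 microglial markers the mean log2 value was 16.41 to 17.1 on the CKO arrays and 15.87 to 16.43 on the control arrays, and Tmem119, a defining microglial gene, averaged 13.16 ± 1.40 in CKO and 13.60 ± 0.53 in control (SD, n = 3 each). Of the 9, 7 were higher and 2 lower in CKO, with a median log2 difference of 0.49, and none passed limma's test. Fcrls, an Fc receptor-like gene of microglia, averaged 18.50 ± 0.28 in CKO and 17.29 ± 0.60 in control without overlap (SD, n = 3 each; log2 difference 1.21, limma adjusted p = 0.312). Neutrophil markers averaged 13.94 to 14.35 over 10 genes on the CKO arrays and 14.31 to 15.03 on the control arrays. Astrocyte markers stood highest on CKO replicate 1, at a mean of 13.11, followed by control replicate 2 at 11.5, against 9.07 to 9.64 on the other arrays. CKO replicates 2 and 3 had an interquartile range of 3.08 and 3.11, while the other arrays had 3.66 to 4.0. In bulk samples of this kind, fewer cells of a type and less RNA per cell cannot be told apart.

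None of the 39 genes passed limma's test at an adjusted p of 0.05 over all 22206 probe sets, and the lowest adjusted p was 0.121. That threshold was met by 0.00901% of all probe sets as lower in CKO and by 0% as higher. At an unadjusted p of 0.05, 10 members were lower in CKO (25.6%, against 6.35% of all probe sets) and 2 were higher (5.13%, against 3.55%). The CKO and control values did not overlap for 11 members that were lower in CKO (28.2%, against 8.48% of all probe sets) and for 2 that were higher (5.13%, against 5.94%). The median log2 difference, CKO minus control, was -0.16 over the members and 0.06 over all probe sets. By direction, 21 members were lower and 18 higher, or 25 lower and 14 higher once each array was centred on its median, so the lower values belonged to a subset and not to the whole name family. That subset lay in the Dectin-2 cluster, in Clec12a and in some of the Clec2 genes.

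**Figure D1:**
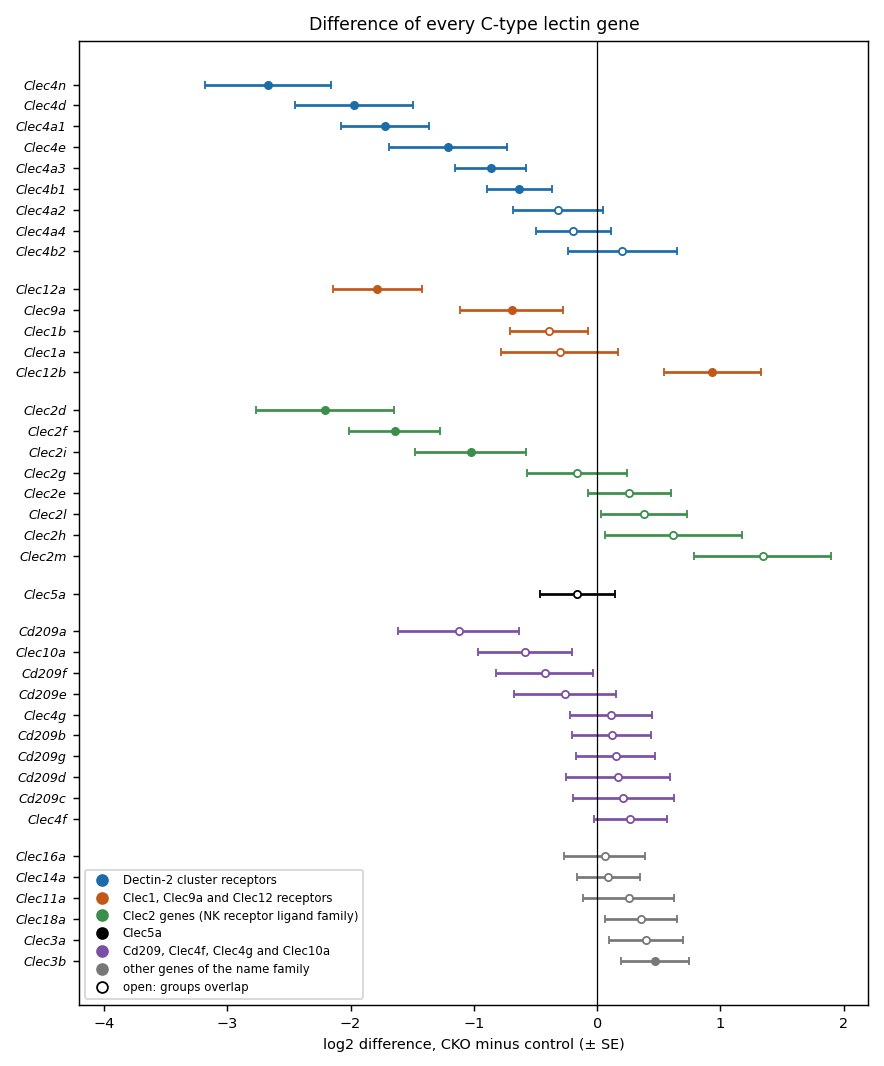
The log2 difference between CKO and control (horizontal axis, with its standard error) is plotted for each of the 39 genes, grouped by receptor type. Filled points mark genes whose CKO and control values did not overlap; they include 6 of the 9 genes of the Dectin-2 cluster and none of the Cd209 group.

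The 9 receptors of the Dectin-2 cluster lie next to each other on chromosome 6, with 0 other protein-coding genes between neighbours in the RefSeq mouse table (assembly GRCm38.p6). Of the 9, 8 were lower in CKO (88.9%, against 44.5% of all probe sets), and the median log2 difference was -0.86. At an unadjusted p of 0.05, 6 were lower (66.7%). That limit was met by 6.35% of all probe sets and by 11.1% of those above the median in mean value. The same 6 had groups that did not overlap (66.7%, against 8.48% of all probe sets). Under quantile normalization, median centring and cyclic loess the number lower in CKO was again 8. None passed over all probe sets. The mean over the 9 genes was 8.22, 8.69 and 8.61 on CKO replicates 1, 2 and 3, against 9.49, 9.31 and 9.84 on control replicates 1, 2 and 3.

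Clec4n encodes Dectin-2, which binds fungal mannan and signals through Fcer1g. Its log2 value was 6.46, 7.00 and 8.09 on CKO replicates 1, 2 and 3, against 9.22, 9.63 and 10.70 on control replicates 1, 2 and 3. Every CKO array lay at least 1.13 below every control array. With a log2 difference of -2.67 (SE 0.51, 6.35-fold lower, limma adjusted p = 0.121), it was the largest difference among the 39 genes.

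Clec4d encodes the macrophage C-type lectin MCL, a partner of Mincle on the cell surface. It stood at 8.23, 9.69 and 8.42 on CKO replicates 1, 2 and 3, against 10.18, 10.59 and 11.49 on control replicates 1, 2 and 3 (log2 difference -1.97, SE 0.48, limma adjusted p = 0.206). Clec4e encodes Mincle itself, a receptor for mycobacterial cord factor and for a nuclear protein released by dead cells. Its values were 9.52, 10.56 and 10.21 on CKO replicates 1, 2 and 3, against 10.91, 10.69 and 12.32 on control replicates 1, 2 and 3. Neither gene's groups overlapped, but for Clec4e the gap between them was only 0.13, and control replicate 3 stood well above the other arrays (log2 difference -1.21, SE 0.48, limma adjusted p = 0.462, and -0.70 without that array).

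The DCIR genes of the same cluster had log2 differences of unequal size, which were not tested against each other. Clec4a1, which encodes DCIR4, was at 8.68, 9.26 and 9.85 on CKO replicates 1, 2 and 3, against 11.01, 10.69 and 11.25 on control replicates 1, 2 and 3 (log2 difference -1.72, SE 0.36, limma adjusted p = 0.145). Clec4a3, which encodes DCIR3, was at 11.62, 11.53 and 11.77 in CKO and at 12.88, 12.14 and 12.49 in control (log2 difference -0.86, SE 0.29, limma adjusted p = 0.375). In both genes all CKO arrays lay below all control arrays. Clec4a2, which encodes the inhibitory receptor DCIR, was instead at 11.10, 10.89 and 10.24 in CKO and at 11.46, 11.23 and 10.49 in control. Its groups overlapped, and the 95% interval of its log2 difference ran from -1.15 to 0.52, with values of -0.60 to -0.065 when 1 array was left out. The interval of Clec4a2 contains the difference of Clec4a3 but not that of Clec4a1.

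The other 3 members of the cluster had smaller differences than Clec4a3. Clec4b1, which encodes the activating receptor DCAR, was at 5.76, 5.61 and 5.83 on the CKO arrays and at 6.57, 6.12 and 6.40 on the control arrays (log2 difference -0.63, SE 0.26, limma adjusted p = 0.487). Clec4a4, the DCIR2 gene of a dendritic cell subset, and Clec4b2 had overlapping groups, with log2 differences of -0.19 and 0.20. Along the chromosome the adjacent genes Clec4n, Clec4d and Clec4e, all of which encode receptors that activate through Fcer1g, showed 3 of the 4 largest differences of the cluster, and Clec4a1 at its other end showed the remaining one.

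**Figure D2:**
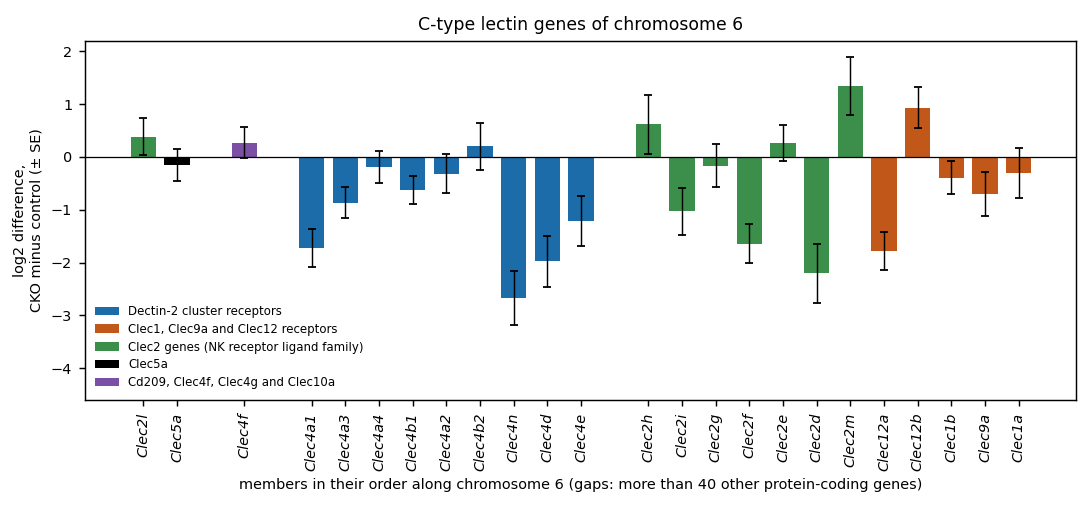
Bars give the log2 difference between CKO and control (vertical axis, with standard error) of the 24 members on chromosome 6 in their order along it, with gaps where more than 40 other protein-coding genes lie between. In the Dectin-2 cluster the first gene, Clec4a1, is at -1.72, and the last ones, Clec4n, Clec4d and Clec4e, are at -2.67, -1.97 and -1.21. Between them Clec4a3 and Clec4b1 are at -0.86 and -0.63, and Clec4a2, Clec4a4 and Clec4b2 at -0.32, -0.19 and 0.20.

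Promoters are shown for 3 members that were lower in CKO at different positions of chromosome 6, for Clec4e, whose difference was smaller, and for Clec4a2, the neighbour whose groups overlapped. Each runs from 250 bases before to 50 bases after the start of the gene, 5′ to 3′ on the strand of the gene, from RefSeq build GRCm38.p6. Capitals mark any match to an interferon-stimulated response element (GAAA, any 2 bases, GAAA), a gamma-activated site bound by STAT factors (TTCNNNGAA), an AP-1 site (TGANTCA), a C/EBP site (TTNNGCAA) or a PU.1 site (GAGGAAGT), searched on both strands.
Clec4d, chr6:123261857-123262156, plus strand: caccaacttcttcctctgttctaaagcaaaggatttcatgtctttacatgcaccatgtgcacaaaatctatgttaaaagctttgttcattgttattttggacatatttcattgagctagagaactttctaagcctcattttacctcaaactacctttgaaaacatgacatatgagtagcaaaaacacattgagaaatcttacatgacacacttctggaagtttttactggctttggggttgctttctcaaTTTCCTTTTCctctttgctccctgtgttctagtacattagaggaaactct
Clec4e, chr6:123289822-123290121, minus strand: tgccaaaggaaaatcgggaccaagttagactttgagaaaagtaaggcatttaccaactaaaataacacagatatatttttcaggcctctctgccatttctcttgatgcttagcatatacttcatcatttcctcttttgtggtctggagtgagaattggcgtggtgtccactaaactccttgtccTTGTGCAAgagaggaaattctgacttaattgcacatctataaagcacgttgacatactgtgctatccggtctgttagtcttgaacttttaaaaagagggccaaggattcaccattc
Clec2d, chr6:129180365-129180664, plus strand: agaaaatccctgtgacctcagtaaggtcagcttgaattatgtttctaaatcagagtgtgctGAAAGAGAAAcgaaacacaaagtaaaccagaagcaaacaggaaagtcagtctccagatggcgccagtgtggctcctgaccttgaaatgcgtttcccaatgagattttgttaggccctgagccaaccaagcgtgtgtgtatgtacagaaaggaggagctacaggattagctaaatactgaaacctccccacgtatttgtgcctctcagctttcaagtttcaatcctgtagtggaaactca
Clec12a, chr6:129349994-129350293, plus strand: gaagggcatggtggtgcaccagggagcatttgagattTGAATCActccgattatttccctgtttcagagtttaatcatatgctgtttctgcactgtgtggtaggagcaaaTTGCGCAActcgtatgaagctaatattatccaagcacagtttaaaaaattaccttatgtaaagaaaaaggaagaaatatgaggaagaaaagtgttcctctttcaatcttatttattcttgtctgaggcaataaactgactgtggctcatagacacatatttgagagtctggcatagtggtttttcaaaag
Clec4a2, chr6:123122440-123122739, plus strand: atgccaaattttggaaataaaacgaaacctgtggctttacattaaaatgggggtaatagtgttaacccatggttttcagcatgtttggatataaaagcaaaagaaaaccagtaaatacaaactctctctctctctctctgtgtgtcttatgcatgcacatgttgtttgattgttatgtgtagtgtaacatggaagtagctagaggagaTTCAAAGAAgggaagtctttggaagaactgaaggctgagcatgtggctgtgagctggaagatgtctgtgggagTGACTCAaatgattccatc
The capitals are an interferon-stimulated response element in Clec4d and in Clec2d, a C/EBP site in Clec4e, an AP-1 site and then a C/EBP site in Clec12a, and a gamma-activated site and then an AP-1 site in Clec4a2.

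RefSeq promoters were found for 32 of the 39 members, 34 promoters in all. No promoter was found for Clec4n or Clec2f, both lower in CKO. Every promoter shown above holds a match, whereas those of Clec4a1 and Clec4a3, also lower in CKO, hold none. The interferon-stimulated response element occurred in 3 of the 34, those of Clec2d, Clec4b1 and Clec4d, and in 3.44% of all 32851 promoters of the same length. A gamma-activated site occurred in 1 of the 34 (8.3% of all promoters), an AP-1 site in 8 (7.81%), a C/EBP site in 7 (10.8%) and the PU.1 letters in 0 (3.2%). The 7 promoters with a C/EBP site belong to 6 genes, because 2 overlapping promoters of Clec2i hold the same site. Promoters of related genes, such as Cd209f and Cd209g, share the letters around their AP-1 site, so the matches are not independent. The AP-1 and C/EBP letters were also present in promoters of members whose groups overlapped, such as Cd209f and Clec16a. These matches describe letters in a window and are no evidence of binding.

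Clec12a, which encodes an inhibitory receptor of monocytes, neutrophils and dendritic cells that senses uric acid crystals, lies in a separate lectin cluster of chromosome 6. Its values were 10.46, 11.59 and 11.62 on CKO replicates 1, 2 and 3, against 12.91, 13.06 and 13.05 on control replicates 1, 2 and 3. The control arrays lay within 0.15 of each other, and the gap to the nearest CKO array was 1.29, the widest of any gene with lower values in CKO among the 39. The log2 difference was -1.78 (SE 0.36, 3.44-fold lower, limma adjusted p = 0.138).

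Its neighbour Clec12b, whose human counterpart is an inhibitory receptor, lay in the opposite direction at low values. It was at 5.20, 6.69 and 5.66 on the CKO arrays and at 4.77, 4.91 and 5.07 on the control arrays (log2 difference 0.93, SE 0.39, limma adjusted p = 0.494, and 0.51 without CKO replicate 2). Clec9a, which encodes the receptor by which cross-presenting dendritic cells sense the exposed actin of dead cells, was at 4.53, 5.89 and 6.07 in CKO and at 6.09, 6.29 and 6.19 in control. The groups did not overlap, but CKO replicates 2 and 3 lay close to the control arrays, and CKO replicate 1 alone stood apart (log2 difference -0.69, SE 0.42, limma adjusted p = 0.596, and -0.21 without that array).

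Clec1b, the podoplanin receptor of platelets, had overlapping groups at 6.02 to 6.72 in CKO and 6.36 to 7.02 in control, with a log2 difference of -0.39 (limma adjusted p = 0.677), or -0.21 with CKO replicate 1 left out and -0.60 with control replicate 3 left out. Clec1a, which encodes a receptor for fungal melanin, was likewise dim and overlapping.

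Among the 8 measured Clec2 genes, 4 were lower and 4 higher in CKO, with a median log2 difference of 0.05 that centring each array on its median turned to -0.075. Clec2d encodes Clr-b, the ligand by which many haematopoietic cells engage an inhibitory NK cell receptor. Its values were 10.76, 10.62 and 11.48 on CKO replicates 1, 2 and 3, against 13.25, 11.95 and 14.28 on control replicates 1, 2 and 3. All CKO arrays were below all control arrays, and control replicate 2 lay nearest to them (log2 difference -2.21, SE 0.56, 4.62-fold lower, limma adjusted p = 0.217). Klrb1b, which encodes that inhibitory receptor and is no Clec gene, was at 6.40, 6.82 and 7.36 in CKO and at 10.07, 9.18 and 9.69 in control (log2 difference -2.79, limma adjusted p = 0.0745). Ligand and receptor thus both had lower values in CKO, and neither passed the threshold.

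Clec2f, the gene of Clr-c, was at 6.74, 7.07 and 6.87 on the CKO arrays and at 8.69, 7.79 and 9.13 on the control arrays (log2 difference -1.64, SE 0.37, limma adjusted p = 0.176). For Clec2i, the gene of Clr-g, the values were 6.42, 8.03 and 7.85 in CKO and 8.67, 8.09 and 8.62 in control. The 2 groups of Clec2i were separated by only 0.06. Its log2 difference was -1.03 (SE 0.45, limma adjusted p = 0.503), and -0.52 without CKO replicate 1. Clec2m lay the other way, at 6.38, 6.78 and 8.54 in CKO and 6.43, 5.77 and 5.47 in control, with groups that overlapped and a log2 difference of 1.34 (SE 0.55, limma adjusted p = 0.484), which was 0.69 without CKO replicate 3. Clec2e, Clec2g, Clec2h and Clec2l had overlapping groups and log2 differences between -0.16 and 0.62. Clec2 genes are close relatives of each other, so probes of one may also read another; no member shared identical values with another probe set.

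**Figure D3:**
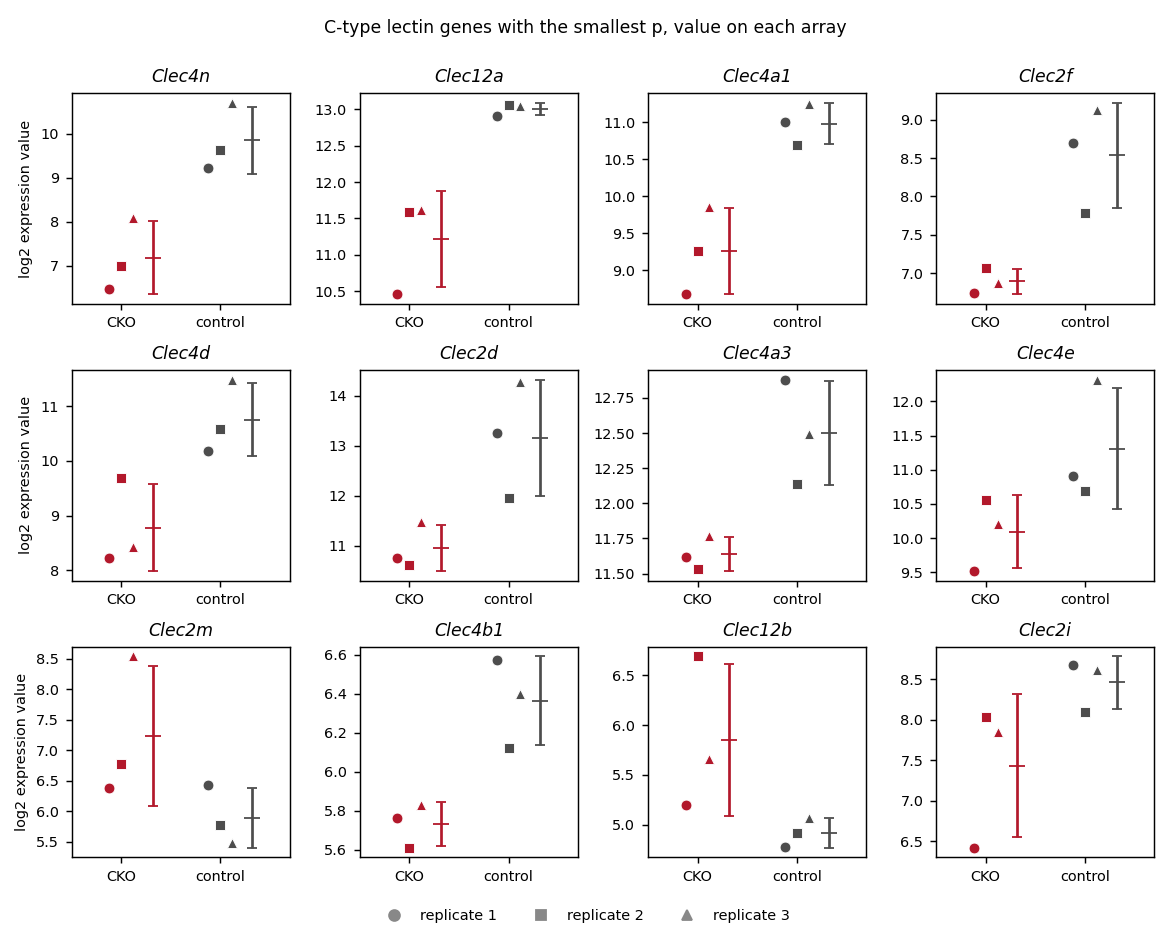
Log2 expression values (vertical axes, a separate scale for each gene) of the 12 members with the smallest p are plotted for each CKO and control array, with the mean and SD beside them. Clec4n, Clec12a and Clec4a1 have groups parted by more than 0.8, whereas Clec4e and Clec2i have groups that nearly touch.

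Clec5a, which encodes the myeloid receptor MDL-1 that pairs with Tyrobp, was among the brighter members and had overlapping groups. It stood at 12.82, 12.62 and 12.09 on CKO replicates 1, 2 and 3, against 12.77, 12.84 and 12.40 on control replicates 1, 2 and 3. The log2 difference was -0.16 with a 95% interval from -0.85 to 0.53, which does not contain the differences seen for Clec4n, Clec12a or Clec4a1. Its sign turned under quantile normalization, to 0.069.

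The DC-SIGN and galactose-lectin receptors, endocytic receptors that bind glycans of self and of microbes, showed no common direction. Of 10 genes, 4 were lower and 6 higher, or 6 lower and 4 higher after centring each array on its median, with 0 at an unadjusted p of 0.05 and a median log2 difference of 0.12. Cd209a, the mouse DC-SIGN gene of monocyte-derived dendritic cells, was at 8.14, 9.61 and 9.01 in CKO and at 10.78, 10.12 and 9.23 in control (log2 difference -1.12, SE 0.49, limma adjusted p = 0.504). Clec10a, which encodes the galactose lectin MGL1 of macrophages and dendritic cells, was at 7.74, 8.71 and 8.89 in CKO and at 9.44, 8.63 and 9.03 in control (log2 difference -0.59, limma adjusted p = 0.618). Both were lowest on CKO replicate 1, and the groups of both overlapped. Without that array the log2 difference was -0.73 for Cd209a and -0.23 for Clec10a, and without control replicate 1 that of Clec10a was -0.38. The other 8, among them Cd209b (SIGNR1 of marginal zone macrophages), Clec4f (a Kupffer cell receptor) and Clec4g (a lectin of sinusoidal endothelium), had overlapping groups and log2 differences from -0.43 to 0.27.

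The remaining 6 genes share the name but are not known as glycan receptors of leukocytes. All 6 had slightly higher means in CKO, although centring each array on its median turned 2 of them, Clec14a and Clec16a (median log2 difference 0.31, 0 at an unadjusted p of 0.05). Clec3b, which encodes the plasminogen-binding secreted protein tetranectin, was at 5.63, 5.80 and 5.73 in CKO and at 4.96, 5.25 and 5.54 in control (log2 difference 0.47, limma adjusted p = 0.584). Clec14a, an endothelial surface gene, stayed between 3.63 and 3.98 on all arrays, near the lowest values of the arrays. Clec16a, which encodes an endosomal regulator of mitophagy, was at 9.06, 8.45 and 8.31 in CKO and 8.44, 8.97 and 8.23 in control, with a 95% interval of the log2 difference from -0.69 to 0.81. The secreted or tissue-restricted genes Clec3a, Clec11a and Clec18a had overlapping groups and log2 differences of 0.26 to 0.39.

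The members with lower values in CKO were mostly the brighter ones. When the genes were split at the median of all probe sets by their mean over the 6 arrays, 17 members fell on the brighter side and 22 on the dimmer side. That mean includes the control arrays, so a gene can reach the brighter side through its control values. Clec2f, for example, averaged 6.89 in CKO and 8.54 in control, beside array medians of 7.13 to 7.34. Side and direction are thus not independent, and the split is a description only. Of the 17 brighter members, 14 were lower in CKO and 9 of them at an unadjusted p of 0.05, which 11.1% of all brighter probe sets reached in that direction. Their median log2 difference was -1.03, and that of all brighter probe sets was -0.11. Of the 22 dimmer members, 7 were lower and 15 higher, with a median of 0.16 beside 0.19 over all dimmer probe sets. The level of a dim gene is uncertain, because detection above background was not assessed.

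CKO replicate 1, the array with the highest astrocyte markers, held the lowest value of the 6 arrays for 17 of the 39 members. The other arrays held the lowest value for 3 to 6 members each. The same count was not made over all probe sets, and CKO replicate 1 had the widest interquartile range, 4.0. The count is therefore not read as a trait of the lectin genes. Without CKO replicate 1, 8 of the 39 members were lower and 3 higher at an unadjusted p of 0.05. The shares of all probe sets also rose in that setting, to 13.6% lower and 15.4% higher. The median over the members was 0.02, beside 0.08 over all probe sets. As lower in CKO, 4 members passed over all probe sets: Clec4n, Clec12a, Clec4a1 and Clec2f, at limma adjusted p from 0.0186 to 0.0424. In that setting 4.94% of all probe sets also passed as lower, and the CKO group consisted of the 2 arrays with a narrow range of values, so genotype and narrow range cannot be told apart there. With arrays weighted by their agreement with the fit, 6 members passed as lower, against 4.76% of all probe sets. CKO replicate 1 then had a weight of only 0.258, against 1.049 and 1.428 for CKO replicates 2 and 3. With CKO replicate 1 and control replicate 2 both left out, a setting chosen after seeing the data, 5 members passed as lower, against 6.28% of all probe sets. In both settings the CKO group again rested mainly or wholly on the arrays with a narrow range, so the same limit applies.

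Markers of other leukocytes differed between the same arrays. All 12 blood monocyte markers were lower in CKO. Their mean log2 value was 10.72 to 11.5 on the CKO arrays against 12.25 to 13.14 on the control arrays, and their median log2 difference was -1.75. Ccr2, the chemokine receptor of inflammatory monocytes, averaged 11.94 ± 0.89 in CKO and 13.93 ± 0.53 in control (SD, n = 3 each). Of 12 dendritic cell markers, 10 were lower, with means of 7.83 to 8.38 in CKO against 8.59 to 9.06 in control and a median log2 difference of -0.55. Groups did not overlap for 4 of the 12, all lower (33.3%, against 8.48% of all probe sets). Ccl22 differed most, by -3.66, while Zbtb46 and Xcr1 had overlapping groups and Batf3 was higher by 0.51. All 10 T cell markers were lower, at 6.48 to 7.34 in CKO against 8.42 to 10.29 in control. All 9 NK cell markers were lower too, at 6.72 to 7.34 in CKO against 7.49 to 8.57 in control. Groups did not overlap for 5 of the 9 (55.6%, against 8.48% of all probe sets). Ncr1 and Eomes had overlapping groups and differed by -0.66 and -0.41 on the log2 scale. Of 10 markers of border-associated macrophages, 8 were lower, with means of 8.34 to 8.54 in CKO against 8.85 to 9.22 in control and a median log2 difference of -0.63. These markers did not share a direction. Groups did not overlap for 3 that were lower (30%, against 8.48% of all probe sets) and 1 that was higher (10%, against 5.94%). The higher one was Lyve1, with a log2 difference of 1.33, while Ms4a7 differed most, by -2.58. Of 9 B and plasma cell markers, 7 were lower, at 5.89 to 6.85 in CKO against 7.04 to 7.9 in control, with a median log2 difference of -0.59. Neutrophil markers overlapped between the groups, with a median log2 difference of -0.44. The part of these cells in the lectin differences was not tested.

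**Figure D4:**
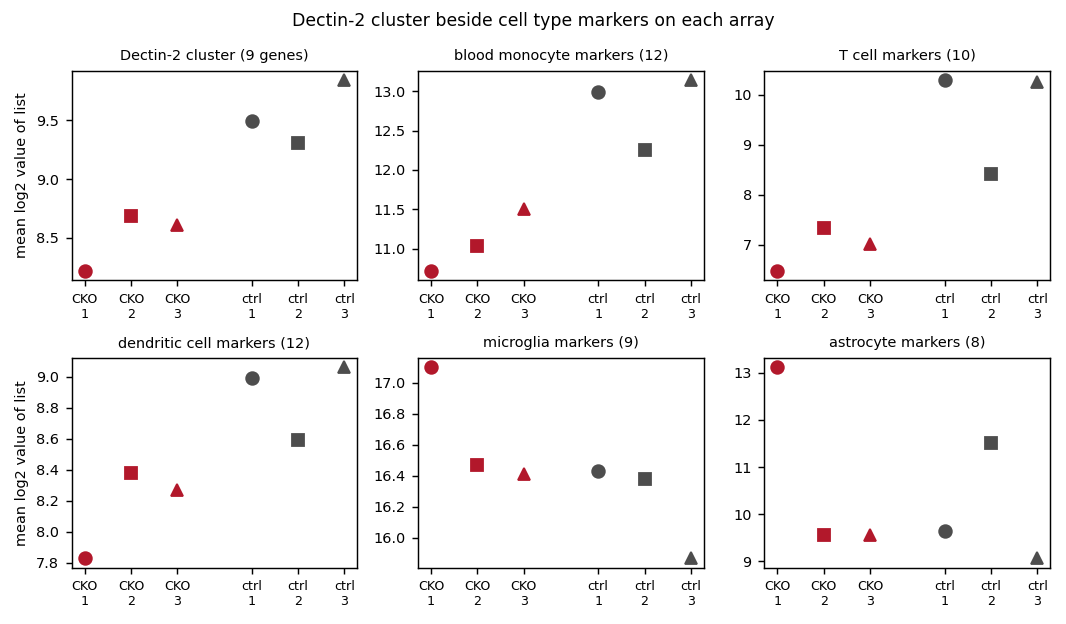
Mean log2 values (vertical axes, a separate scale for each list) of the Dectin-2 cluster and of 5 marker lists are plotted for each array, with CKO replicates left of control replicates. The Dectin-2 cluster, monocyte, dendritic and T cell lists are lower on all CKO arrays than on all control arrays, whereas the astrocyte list peaks on CKO replicate 1 at 13.11.

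Genes that transmit the signal of these receptors had lower mean values in CKO in most cases, by differences that mostly missed an unadjusted p of 0.05. Of 27 measured adaptors, kinases, phosphatases and partners, 24 were lower in CKO and the median log2 difference was -0.59; under quantile normalization 20 were lower and 7 higher. At an unadjusted p of 0.05, 4 were lower (14.8%) and 0 higher, and none passed over all probe sets. Of all probe sets 6.35% were lower at that limit, and of the brighter ones, to which 26 of the 27 genes belong, 11.1% were. By that count the share of the list was near the background of genes this bright. By sign, 88.9% of the list were lower, against 44.5% of all probe sets. Groups did not overlap for 8 genes, all lower in CKO (29.6%, against 8.48% of all probe sets). These last 2 shares were not counted among the brighter probe sets. Without CKO replicates 2 and 3, the arrays with a narrow range of values, the list median was -0.067, beside -0.05 over all probe sets. That setting was added later and leaves 1 CKO array. Tyrobp, the partner chain of Clec5a, was at 14.69, 14.10 and 14.16 on the CKO arrays and at 15.15, 14.89 and 14.91 on the control arrays (log2 difference -0.67, SE 0.28, limma adjusted p = 0.495). Fcer1g, the partner chain of the Dectin-2 and Mincle receptors, was at 14.97, 13.71 and 14.08 in CKO and at 15.59, 14.45 and 15.60 in control, with groups that overlapped (log2 difference -0.96, SE 0.44, limma adjusted p = 0.519).

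The kinase gene Syk averaged 11.37 ± 0.57 in CKO and 12.09 ± 0.33 in control (SD, n = 3 each, log2 difference -0.72, limma adjusted p = 0.542). Its value on CKO replicate 1, 12.02, lay within the control values of 11.75 to 12.41. The adaptor gene Card9 averaged 9.70 ± 0.16 in CKO and 9.95 ± 0.08 in control (log2 difference -0.25, limma adjusted p = 0.733). The smallest p of this list belonged to Ptpn6, the phosphatase recruited by inhibitory receptors such as Clec12a, at 11.78, 11.11 and 10.28 in CKO against 12.56, 12.21 and 12.35 in control (log2 difference -1.32, SE 0.39, limma adjusted p = 0.314). Nfatc2, a calcium-dependent transcription factor gene, Hcst, the DAP10 adaptor gene, and Prkcd, the kinase gene upstream of Card9, differed by -0.80, -0.86 and -0.59 on the log2 scale.

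Genes with a C-type lectin-like domain but other names were also described. Of 37 measured genes, 25 were lower, with a median log2 difference of -0.30. At an unadjusted p of 0.05, 10 were lower (27%, against 6.35% of all probe sets) and 1 higher (2.7%, against 3.55%), and at an adjusted p of 0.1 the list held 2 genes, both lower, while 0.198% of all probe sets met that limit as lower. These were Klrb1b, given above, and Cd72, an inhibitory receptor of B cells that myeloid cells also carry. Cd72 was at 9.84, 10.25 and 9.47 on CKO replicates 1, 2 and 3, against 12.44, 11.96 and 12.79 on control replicates 1, 2 and 3 (log2 difference -2.54, SE 0.33, limma adjusted p = 0.0751).

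Cd69, an early activation antigen of lymphocytes, differed by -2.66, and the NK cell receptor genes Klrc1 and Klrb1c by -2.02 and -1.49 on the log2 scale. Klrc1, Klrb1c, Klrk1 and Klrd1 were counted both in this list and among the NK cell markers above, so the 2 counts are not separate results. Cd93, a gene of endothelial and myeloid cells, differed by -1.28. The mannose receptor gene Mrc1, a marker of border-associated macrophages, had overlapping groups at 12.73 to 14.28 in CKO and 13.24 to 14.19 in control (log2 difference -0.10), a smaller difference than the median of -0.63 over the 10 markers of those cells. Its direction turned under quantile normalization, to 0.13. Mgl2, the second mouse galactose lectin gene, was at 7.32, 8.32 and 6.06 in CKO and at 9.10, 8.14 and 7.68 in control (log2 difference -1.07, limma adjusted p = 0.568). Leaving out 1 array gave Mgl2 a log2 difference of -0.49 without CKO replicate 3, -0.68 without control replicate 1 and -1.62 without CKO replicate 2.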

How the data were processed

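Brain microglia RNA of 3 CKO and 3 control samples was hybridised, 1 array per sample. The deposited table holds log2 values per probe set, made by the authors with RMA per the submitters' processing notes, with no version or settings given in the sources used here. That the scale is log2 was inferred from the range of the values. The number of arrays limits the precision. Of 22206 probe sets, 19572 named 1 gene (19505 genes); the probe set with the highest mean stood for a gene.

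Groups came from the sample titles. The model was limma's lmFit with eBayes (limma 3.58.1, R 4.3.3), CKO minus control, two-sided, with Benjamini-Hochberg adjustment over all probe sets, and the fit was tested on simulated data. An exact permutation test of 3 arrays against 3 can reach no p below 0.1 and was not run. The reported fit did not pair samples by replicate number. Deviations from the group means correlated at -0.005, -0.23 and 0.254 between arrays of the same number, and at -0.334 to 0.304 between arrays of different number. So few values cannot settle whether samples of the same number shared a batch or preparation. The members and gene lists were chosen with earlier results of these data known. Arrays are given for the 12 members with the smallest p and for preselected receptors; of the list of signalling genes and the list of other lectin-like genes, the 6 with the smallest p and 6 preselected genes are named. Some genes of the family and of the lists are not analysed here. Alternatives covered normalization, centring, filters on dim probe sets, the variance model, array weights, the replicate block, omitted arrays, averaged probe sets and the threshold.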

Additional observations from a re-analysis of the deposited data

How the results depend on the processing

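No member passed as higher in CKO under any setting tried. Members passing as lower were 0 in most settings, 6 with array weights (Clec4n, Clec12a, Clec4a1, Clec2f, Clec4d and Clec2d; 4.76% of all probe sets passed) and 0 to 4 with 1 array left out. Leaving out CKO replicate 1 and control replicate 2 together, chosen after seeing the data, gave 5 (6.28% of all probe sets). Members at an unadjusted p of 0.05 numbered 7 to 10 lower and 0 to 3 higher with 1 array left out. The shares of all probe sets were then 3.84% to 13.6% lower and 1.71% to 15.4% higher. The higher share was 15.1% with array weights and 15.9% without CKO replicate 1 and control replicate 2. Higher members, 2 in the reported fit, were 4 with array weights and without CKO replicate 1 and control replicate 2. There was 1 with quantile normalization, median centring, cyclic loess (added later) or the dimmest 20% left out, beside 3.68%, 2.12%, 4.04% and 3.37% of the probe sets tested. With the dimmest 50% left out, where 17 members were tested, there were 0, beside 2.70% of the probe sets tested. With the replicate block the counts were 8 lower and 1 higher, beside 6.42% and 3.55% of all probe sets. The titles give the samples only a shared number.

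The median over members was -1.03 and that of lectin-like genes named otherwise -0.87 with the dimmest 50% left out. The median of signalling genes was -0.067 without CKO replicates 2 and 3, a setting added later that leaves 1 CKO array. With 1 array left out, medians ran from -0.25 to 0.02 for members. Median centring moved the median of all probe sets from 0.06 to -0.06.

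Genes near 0 turned direction. Clec5a was 0.15 without CKO replicates 2 and 3, 0.12 with cyclic loess, 0.069 with quantile normalization and -0.32 to 0.05 with 1 array left out; Clec4a2 was 0.04 without CKO replicates 2 and 3. Clec14a was -0.031 with cyclic loess, -0.033 with median centring and -0.022 to 0.15 with 1 array left out. Clec16a was -0.056 with array weights, -0.063 with median centring and -0.17 to 0.27 with 1 array left out. Mrc1 was 0.58 without CKO replicate 1 and control replicate 2, 0.25 with array weights, 0.17 with cyclic loess, 0.13 with quantile normalization and -0.40 to 0.37 with 1 array left out. The causes were not tested.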
